A study of Mus musculus with 13 samples.

Results

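AP-1 (activator protein 1) and the immediate early response factors around it are described here as 10 genes, Fos, Fosb, Fosl1, Fosl2, Jun, Junb, Jund, Atf3, Egr1 and Ier2, of the 23361 gene symbols in the tables. They were picked by name for what they encode, and all 10 were present. RNA was taken from hepatocellular carcinomas of mice in which Mst1 was deleted in every cell (Mst1-/-) and Mst2 carried floxed alleles (Mst2Flox/Flox) that were removed in liver by an adenovirus with Cre, on a mixed C57BL/6 and 129Sv background. Mice with tumours on ultrasound were randomized between 2 kinds of lipid nanoparticle, injected into a vein over 9 days. In the siYap group (5 libraries) the particles carried an siRNA against Yap, the co-activator restrained by the Hippo kinases Mst1 and Mst2, and in the siLuc group (8 libraries) an siRNA against luciferase, which mice lack. Both groups therefore lack Mst1 in every cell and Mst2 in those cells where Cre acted. No tissue with both kinases intact was analysed here. The labels give no age and do not say which cell types took up the adenovirus or the particles. They also do not say whether the libraries of a group came from separate animals, so the p-values measure the spread between libraries. The file names of the 13 libraries carry 8 numbers, 3 in siYap and 5 in siLuc, which the labels do not explain. If libraries that share a number are not independent, the sample sizes of 5 and 8 overstate the replication.

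AP-1 is a dimer of basic leucine zipper proteins. Jun family proteins pair with each other or with Fos family proteins, whereas Fos family proteins need a Jun partner to bind DNA. Several of these genes belong to the immediate early class: they are transcribed within minutes of growth factor, cytokine or stress signals through factors already in the cell, and their mRNAs, often carrying AU-rich elements, are short-lived. In liver, Fos, Jun and Egr1 are known for rapid induction after partial hepatectomy, and Yap with its Tead partners is known to share many enhancers with AP-1.

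Library totals ran from 23637021 to 37043914 fragments, and the 2 lowest were siYap 1 and siYap 3, which also had the highest level of the ribosomal RNA gene Rn45s (1160 and 1882 CPM, against 479 to 812 CPM in the other libraries, where CPM is a gene's fragment count scaled to a common library size). Yap1, the siRNA target, measured 10.3 to 20.2 CPM in siYap libraries and 37.5 to 56.3 CPM in siLuc libraries (log2 fold change -1.58 ± 0.17 SE, adjusted p = 2.36e-05). The hepatocyte genes Ttr, Apoa1 and Hnf4a were high in every library, with Hnf4a at 61.1 to 139 FPKM (fragments per kilobase of transcript, scaled for depth) in siYap and 76.2 to 127 FPKM in siLuc. Serpina1a, Fgb and Cps1, also hepatocyte markers, fell (log2 fold change -0.84, -0.74 and -1.60). Markers of other cells moved with treatment as well, where 16.0% of all genes tested rose and 14.8% fell. Of 6 neutrophil markers 5 rose (summed FPKM 165 to 1222 in siYap and 37.8 to 198 in siLuc), of 8 macrophage markers 3 fell and 1 rose (23.0 to 50.4 and 45.1 to 129), and of 6 cholangiocyte markers 3 fell (160 to 1139 and 1938 to 5048). Of 7 endothelial markers 3 rose (44.4 to 111 and 36.4 to 103), of 7 stellate and fibroblast markers 2 rose (106 to 449 and 51.2 to 229), of 6 hepatocyte markers 3 fell (7687 to 11608 and 10445 to 17654), and of 7 lymphocyte markers none passed the test (16.0 to 34.7 and 18.6 to 47.7). The sums mostly follow the most abundant markers, S100a8 and S100a9 for neutrophils and Spp1 for cholangiocytes. Without siYap 1 and 3, 4 neutrophil, 1 endothelial, 0 macrophage and 0 stellate and fibroblast markers rose. In that setting 2 macrophage, 2 hepatocyte and 4 cholangiocyte markers fell. Only 1 neutrophil marker rose in the libraries whose file code begins with 7, and 1 with the replicate number as a block. Fos, Jun and Egr1 are transcribed in most of the cell types named, and the part of cell composition in the results below was not tested.

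Of the 10 genes, 9 had enough fragments to be tested and Fosl1 did not. Fos and Junb were lower in siYap tumours and Fosl2 was higher, at an adjusted p under 0.05 in edgeR's quasi-likelihood test across all genes. The other 6, Fosb, Jun, Jund, Atf3, Egr1 and Ier2, did not pass. Across the 15132 genes tested, 14.8% were called lower and 16.0% higher, so 2 of 9 lower and 1 of 9 higher are shares close to the background, and the results concern the named genes and not the group. The median log2 fold change was -0.35 over the 9 genes and -0.0026 over all genes tested.

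**Figure D1:**
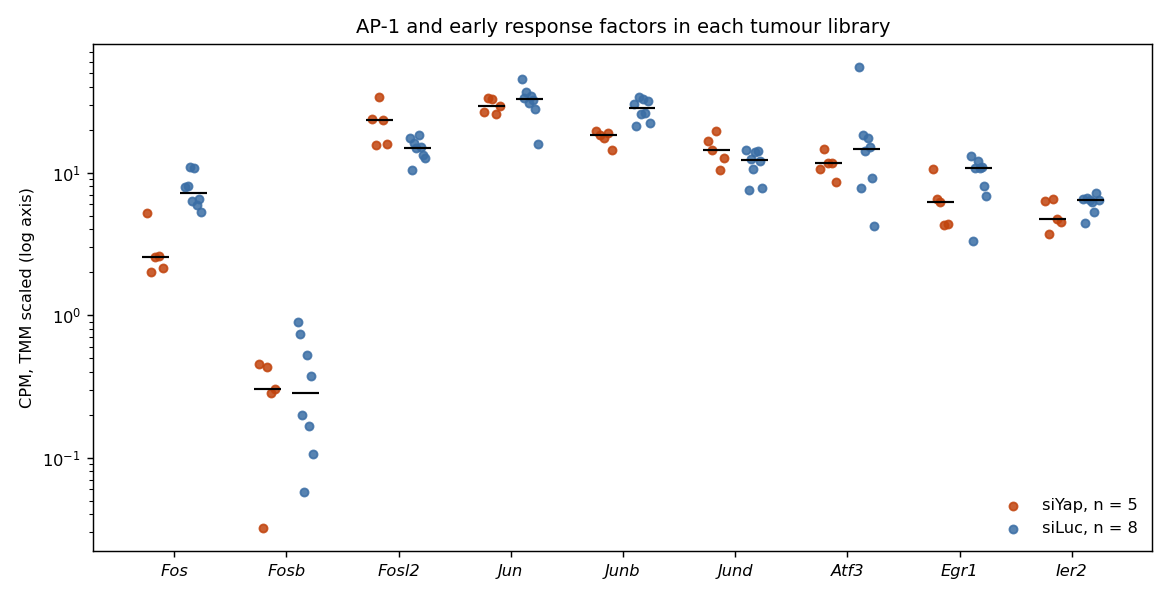
CPM of the 9 tested genes on a log axis, 1 point per library, siYap (n = 5) left of siLuc (n = 8), with a black bar at each group's median. All 5 siYap points lie below all 8 siLuc points for Fos and Junb, and 1 siLuc library stands at 55.1 CPM for Atf3.

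**Figure D2:**
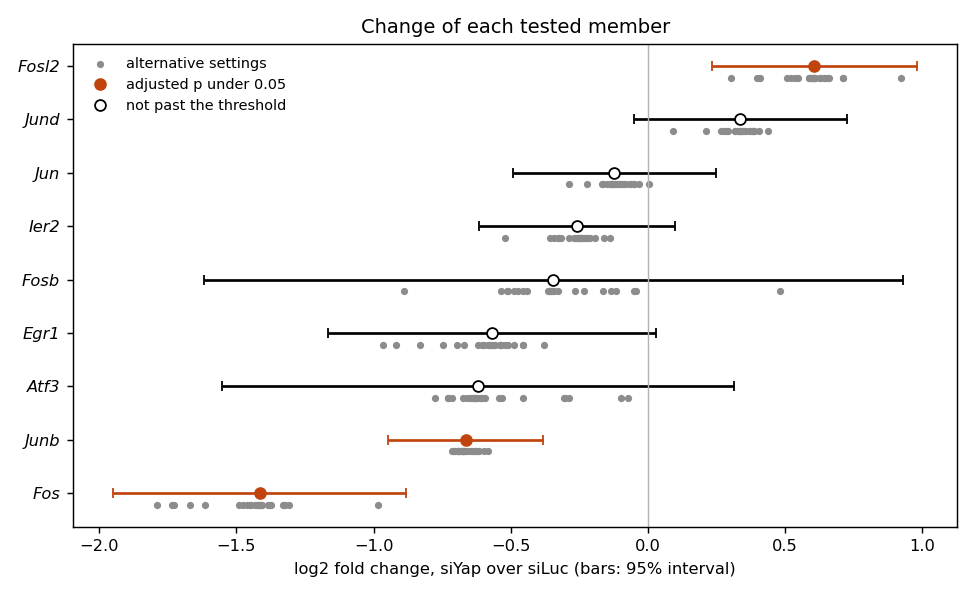
log2 fold change of siYap over siLuc for each tested gene, with bars for the 95% interval (1.96 standard errors) and filled circles at an adjusted p under 0.05. Grey points are the values under alternative settings, and those of Fos, Junb and Fosl2 stay on 1 side of 0.

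RefSeq's promoter table (build GRCm38.p6) held a window for 7 of the 10 genes, running from 250 bases before the annotated start to 50 bases after it. The windows of the 3 genes that changed and of Jun, which was not called, are shown so that they can be read beside one another. Capitals mark TGACG, the core of the cyclic AMP response element to which Creb and Atf proteins bind, TATAAA, the TATA box, GCGNGGGCG, the Egr site, and TGACATCA, an AP-1 site known from the human JUN promoter.
Fos (chr12:85473640-85473939, plus strand): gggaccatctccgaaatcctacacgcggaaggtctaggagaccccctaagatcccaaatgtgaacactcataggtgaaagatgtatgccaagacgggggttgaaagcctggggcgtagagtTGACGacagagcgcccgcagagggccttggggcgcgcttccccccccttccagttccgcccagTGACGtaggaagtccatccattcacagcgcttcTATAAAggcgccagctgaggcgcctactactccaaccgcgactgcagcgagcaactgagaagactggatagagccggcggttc
Junb (chr8:84978699-84978998, minus strand): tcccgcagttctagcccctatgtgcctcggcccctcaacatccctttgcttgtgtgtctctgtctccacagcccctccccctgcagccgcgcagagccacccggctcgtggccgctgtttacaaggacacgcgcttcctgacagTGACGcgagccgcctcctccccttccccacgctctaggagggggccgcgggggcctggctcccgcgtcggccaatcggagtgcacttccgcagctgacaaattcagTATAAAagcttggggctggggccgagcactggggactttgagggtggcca
Fosl2 (chr5:32136222-32136521, plus strand): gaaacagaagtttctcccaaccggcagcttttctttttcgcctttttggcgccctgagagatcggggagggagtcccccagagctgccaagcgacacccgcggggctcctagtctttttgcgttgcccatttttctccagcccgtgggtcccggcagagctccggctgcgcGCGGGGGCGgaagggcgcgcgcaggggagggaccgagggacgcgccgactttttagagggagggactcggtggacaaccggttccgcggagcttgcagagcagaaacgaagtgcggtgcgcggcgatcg
Jun (chr4:95052173-95052472, minus strand): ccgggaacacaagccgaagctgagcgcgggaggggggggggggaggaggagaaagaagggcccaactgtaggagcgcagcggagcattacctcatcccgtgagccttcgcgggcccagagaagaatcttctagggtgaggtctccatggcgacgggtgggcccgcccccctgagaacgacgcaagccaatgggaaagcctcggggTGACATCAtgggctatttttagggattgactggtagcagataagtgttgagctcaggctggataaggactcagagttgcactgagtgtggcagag
Both windows of the genes that fell held the letters TGACG and TATAAA, whereas that of Fosl2 held neither. In Fos, TGACG lay at bases 122 to 126 and 185 to 189 of the window and TATAAA at 218 to 223, and in Junb TGACG lay at 145 to 149 and TATAAA at 251 to 256. Counted from the annotated start, TATAAA lay at -33 to -28 in Fos but at 0 to 5 in Junb. The Junb match may therefore not be a TATA box for that start. The Egr match of Fosl2 lay at 172 to 180 and the TGACATCA of Jun at 206 to 213. These letters are common: on either strand, TGACG occurred in 20.8% of the 32851 windows of the table and TATAAA in 13.6%, both searched after the windows had been seen, GCGNGGGCG in 5.55% and TGACATCA in 3.62%. Among the 7 windows TGACG occurred in 4 (Fos, Fosb, Junb and Atf3), TATAAA in 2, GCGNGGGCG in 2 (Fosb and Fosl2) and TGACATCA in 1. None of the 7 held the AP-1 site TGANTCA (7.81% of all windows), the full element TGACGTCA (1.79%, which contains TGACG), the Tead site GGAATG (14.7%) or the CArG box of the serum response factor (1.63%). Sites farther than 250 bases before the start were not searched, so absence from a window does not mean that the gene lacks the site. The windows of 6 of these genes were richer in G and C (58.7% to 68.3%) than the median window (52.7%), and that of Jund was at 46.7%. For Jund the RefSeq start lies upstream of the start of its transcript in GENCODE M21, so its window may not cover the promoter in use.

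Fos, the founding member of its family and a strong activator when paired with Jun, was lower in every siYap library than in every siLuc library. It measured 5.22, 1.99, 2.56, 2.61 and 2.14 CPM in siYap libraries 1 to 5, against a lowest of 5.29, a median of 7.23 and a highest of 10.9 CPM in siLuc. The highest siYap library came close to the lowest siLuc library, while the other 4 siYap libraries were at 2.61 CPM or less. Means were 2.90 ± 1.32 CPM in siYap and 7.74 ± 2.14 CPM in siLuc (SD, n = 5 and 8), 2.67-fold lower in siYap (log2 fold change -1.41 ± 0.27 SE, adjusted p = 0.00151). The two-sided exact permutation test of log2(FPKM + 0.1) gave p = 0.000777, the smallest value that 5 against 8 libraries allow. Such a separation, every siYap library below every siLuc library in CPM, was seen for 5.84% of the genes tested, and among the 10 genes for Fos and Junb. In bulk tumour RNA, fewer cells of a type that express a gene and less RNA of it per cell cannot be told apart. The file codes begin with 6, 7 or 8, which the labels do not explain, and Fos was lower within each digit, with log2 differences of -1.30, -1.57 and -1.28 (the last with 1 library per group). Its counts were small, 62 to 139 fragments in siYap libraries and 180 to 384 in siLuc libraries.

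Fosl2, which encodes Fra-2, a Fos protein without the strong activation domain of Fos, went the other way. It measured 23.6, 15.8, 34.2, 23.3 and 15.8 CPM in siYap libraries 1 to 5, against a lowest of 10.4, a median of 15.0 and a highest of 18.3 CPM in siLuc. The groups overlapped: siYap 1, 3 and 4 lay above every siLuc library, and siYap 2 and 5 lay above the siLuc median but within its range. Means were 22.5 ± 7.55 CPM in siYap and 14.8 ± 2.63 CPM in siLuc (SD, n = 5 and 8), 1.52-fold higher in siYap (log2 fold change 0.61 ± 0.19 SE, adjusted p = 0.0258). The two-sided exact permutation p was 0.0202, and the difference was positive within each digit of the file code (0.51, 0.87 and 0.33). The call rested on siYap 3, 1 of the 2 libraries of low depth: without it the log2 fold change was 0.41 with an adjusted p of 0.106, and without siYap 1 and 3 together it was 0.30 with an adjusted p of 0.282. No other library, left out alone, ended the call.

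Fosb and Fosl1 were scarce. Fosb, a Fos protein induced by sustained stimulation in brain, measured 0.45, 0.032, 0.43, 0.28 and 0.31 CPM in siYap libraries 1 to 5, against a lowest of 0.057, a median of 0.29 and a highest of 0.89 CPM in siLuc. The groups overlapped throughout, and at 1 to 12 fragments per siYap library and 2 to 28 per siLuc library the log2 fold change of -0.35 had an interval (1.96 SE) from -1.62 to 0.93 (adjusted p = 0.713). Fosl1, which encodes Fra-1, had 7 fragments over all 13 libraries and none in 3 of the 5 siYap libraries and 6 of the 8 siLuc libraries, so it was not detectable at this depth in most of them.

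The make-up of the Fos family therefore differed between the groups, which is a description that follows from Fos and Fosl2. On the FPKM scale, which corrects for length, Fos made up 26.7% ± 6.40 of the summed Fos family FPKM in siYap (18.0% to 35.8%) and 58.9% ± 6.03 in siLuc (51.0% to 67.5%). Fosl2 made up 71.3% ± 6.74 in siYap (61.9% to 80.4%) and 39.4% ± 6.15 in siLuc (29.0% to 45.3%). Neither share overlapped between the groups. The ratio of Fosl2 to Fos FPKM was 1.73, 2.64, 4.46, 2.98 and 2.48 in siYap libraries 1 to 5, against 0.43 to 0.87 in siLuc, so Fosl2 exceeded Fos in 5 of 5 siYap libraries and in 0 of 8 siLuc libraries on this scale. By CPM, with no correction for length, the ratio was 4.53 to 13.3 in siYap and 1.29 to 2.52 in siLuc, above 1 in all 13 libraries. The summed FPKM of the family was 4.68 ± 1.35 in siYap and 5.78 ± 1.23 in siLuc, a difference smaller than either SD. In siYap 1 and siLuc 1 the deposited FPKM of a fragment of Fos was 0.854 and 0.895 of that in the other libraries and of a fragment of Fosl2 0.975 and 1.05, gaps far smaller than the difference in the ratio.

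**Figure D3:**
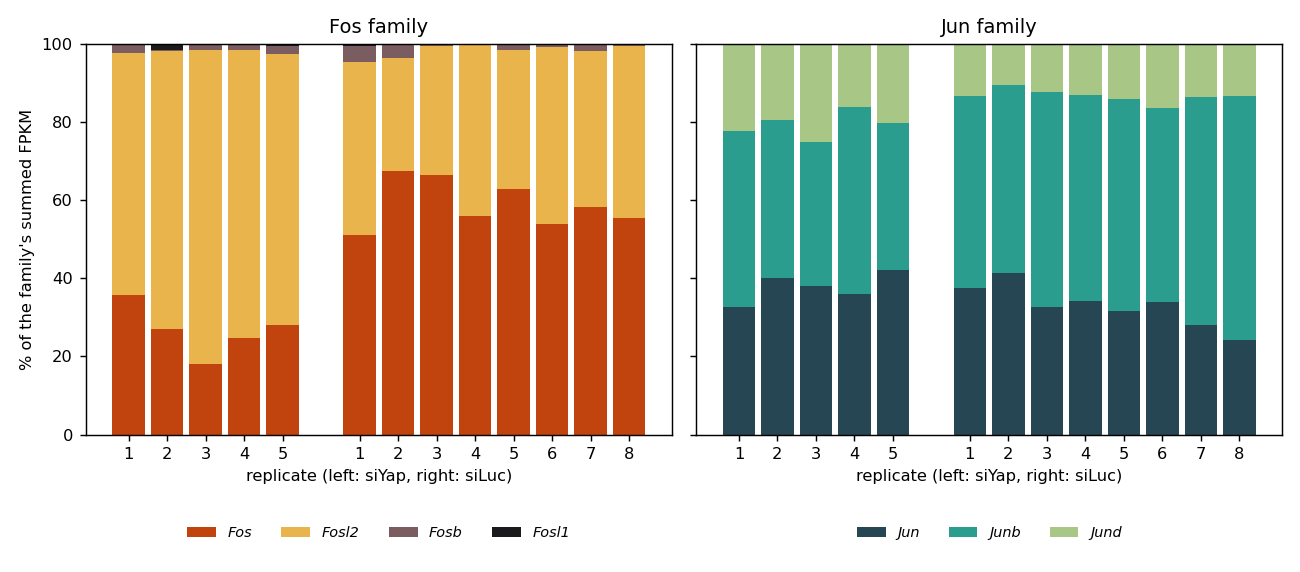
Share of each gene in the summed FPKM (in percent) of the Fos family (left panel) and the Jun family (right panel), 1 bar per library with siYap left of siLuc. Fosl2 fills 61.9% to 80.4% of the Fos family bars in siYap and 29.0% to 45.3% in siLuc, and Jund fills 16.0% to 25.2% of the Jun family bars in siYap and 10.5% to 16.5% in siLuc.

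Junb, a Jun protein with weaker activity than Jun at many promoters and able to restrain it, was lower in every siYap library than in every siLuc library in CPM. It measured 19.6, 18.3, 17.5, 19.0 and 14.4 CPM in siYap libraries 1 to 5, against a lowest of 21.3, a median of 28.2 and a highest of 34.1 CPM in siLuc. The siYap libraries lay within a narrow range just below that of siLuc on the CPM scale. On the FPKM scale the groups overlapped, with siYap 1 at 12.4 FPKM, above siLuc 2 and 8 at 11.3 and 11.6 FPKM, and in siYap 1 the deposited FPKM per fragment of Junb was 1.24 times that of most libraries. Means were 17.7 ± 2.05 CPM in siYap and 28.1 ± 4.89 CPM in siLuc (SD, n = 5 and 8), with a log2 fold change of -0.66 ± 0.14 SE (adjusted p = 0.0033) and a two-sided exact permutation p of 0.00466 on log2(FPKM + 0.1). Junb was lower within each digit of the file code, with log2 differences of -0.43, -0.72 and -0.63.

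Jun, the partner that most AP-1 dimers share, did not pass the test. It measured 26.7, 33.1, 33.0, 26.0 and 29.3 CPM in siYap libraries 1 to 5, against a lowest of 15.8, a median of 32.9 and a highest of 45.7 CPM in siLuc. All siYap values lay inside the siLuc range, and the interval of the log2 fold change ran from -0.49 to 0.25 (estimate -0.12, adjusted p = 0.647). Jund, the Jun gene that most resting cells express steadily, measured 16.6, 14.4, 19.6, 10.4 and 12.6 CPM in siYap libraries 1 to 5, against a lowest of 7.59, a median of 12.3 and a highest of 14.4 CPM in siLuc. The ranges overlapped, with siYap 1 and 3, the libraries of low depth, above every siLuc library (log2 fold change 0.34, interval -0.05 to 0.72, adjusted p = 0.206). Within the Jun family, Junb made up 41.5% ± 4.83 of the summed FPKM in siYap and 53.7% ± 4.91 in siLuc, and Jund 20.7% ± 3.42 in siYap and 13.3% ± 1.68 in siLuc. Jun held 37.8% ± 3.67 in siYap and 33.0% ± 5.28 in siLuc. The ranges overlapped for Jun and for Jund (Jund 16.0% to 25.2% in siYap, 10.5% to 16.5% in siLuc). Shares of a sum depend on one another, and of these genes only Junb was called. The summed FPKM of the Jun family was 23.2 ± 3.26 in siYap and 28.2 ± 6.39 in siLuc.

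Atf3, a stress-induced zipper protein that can repress as a homodimer, varied widely between siLuc libraries. It measured 10.7, 14.8, 11.7, 11.8 and 8.58 CPM in siYap libraries 1 to 5, and 55.1, 7.83, 18.3, 14.1, 17.4, 15.2, 9.22 and 4.21 CPM in siLuc libraries 1 to 8. Every siYap library lay inside the siLuc range, and siLuc 1 stood far above the rest. The log2 fold change was -0.62 with an interval from -1.55 to 0.32 (adjusted p = 0.341), and without siLuc 1 it was -0.10.

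Egr1, a zinc finger factor induced by the same signals through the serum response factor, measured 10.7, 6.49, 6.24, 4.27 and 4.34 CPM in siYap libraries 1 to 5, against a lowest of 3.29, a median of 10.8 and a highest of 13.1 CPM in siLuc. All 5 siYap libraries lay below the siLuc median, but the lowest value of all was siLuc 2. The log2 fold change was -0.57 with an interval from -1.17 to 0.03 (adjusted p = 0.167). Without siLuc 2 it was -0.70 with an adjusted p of 0.0446, past the threshold, and within digit 6 of the file code, which holds siLuc 2, the difference was 0.34 against -1.01 within digit 7. Ier2, an early response gene for a small nuclear protein, measured 6.31, 3.70, 6.53, 4.76 and 4.48 CPM in siYap libraries 1 to 5, against a lowest of 4.43, a median of 6.45 and a highest of 7.22 CPM in siLuc. The groups overlapped (log2 fold change -0.26, interval -0.62 to 0.10, adjusted p = 0.295). Ier2 and Junb lie on chromosome 8 with 314 kb between them. Both had lower means in siYap, Ier2 without passing the test, and a link to their position was not tested.

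On the FPKM scale Junb was the most abundant of the 10 genes in both groups, with 9.66 ± 1.82 in siYap and 15.0 ± 3.03 in siLuc. It was followed in siYap by Jun (8.72), Atf3 (5.22), Jund (4.86), Ier2 (3.52), Fosl2 (3.36), Egr1 (1.99), Fos (1.23), Fosb (0.0756) and Fosl1 (0.0146). In siLuc it was followed by Jun (9.41), Atf3 (7.68), Ier2 (4.09), Jund (3.78), Fos (3.43), Egr1 (2.91), Fosl2 (2.24), Fosb (0.0985) and Fosl1 (0.0059). Fos stood in place 8 in siYap and in place 6 in siLuc, and Fosl2 in place 6 in siYap and in place 8 in siLuc. For most neighbours in these orders the ranges of mean ± SD overlapped, and those that did not were Jun over Atf3 and Fos over Fosb in siYap, and Fosl2 over Fosb in siLuc. Junb stood above Jun in 3 of 5 siYap libraries and in 8 of 8 siLuc libraries. Fosb and Fosl1 were at or below 0.1 FPKM on average in both groups.

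Genes of this class are known for compact structure and unstable mRNA. In GENCODE M21, 4 of the 10 genes (Jun, Junb, Jund and Ier2) have 1 exon, against 2.60% of the tested genes with an annotated 3′ UTR. The pentamer ATTTA, the core of AU-rich elements, ran from 0 copies per kilobase of 3′ UTR in Ier2 and 0.47 in Fosb to 4.10 in Junb and 4.89 in Fos, against a median of 1.29 over 13425 tested genes. At least 3 copies were present in 4 of the 10 genes and in 37.8% of the tested genes, a share near the background. These counts were made after the results were known and describe the sequence alone.

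Within groups the 9 tested genes tended to vary together. After the mean of each group had been subtracted from log2 CPM, 34 of the 36 pairs had a positive Pearson r over the 13 libraries, with a median of 0.44 (0.49 without siYap 1 and 3, and 0.43 without siLuc 1). The closest pair was Jun and Atf3 (r = 0.85, Spearman's rank correlation 0.75), followed by Jund and Egr1 (r = 0.77) and by Fosl2 and Ier2 (r = 0.73), and the lowest was Egr1 and Fosb (r = -0.15). Fos and Junb, the genes that fell, had r = 0.56, and Fos and Fosl2, which moved in opposite directions between groups, had r = 0.42 within them. The libraries share depth and scaling, so these values are a description without a test. The share of positive pairs among all genes tested was not computed, so they cannot be called particular to these genes. Among 11589 other genes at 1 FPKM or more in either group, those most like Fos within groups were Arhgdib (r = 0.89) and Lrch3 (0.87). The 2 highest of so many values over 13 libraries can be this high by selection alone, which was not tested. The same holds for the genes most like the other members. Those most like Junb were Cd86 (0.90) and Cd83 (0.89), costimulatory and surface molecules of antigen-presenting cells, and those most like Egr1 were Spns2 (0.94) and Lcp1 (0.91), the leukocyte plastin. Fosl2 went with Tnfrsf1b, a TNF receptor (0.93), and Spata13 (0.92), Ier2 with Myo1f (0.93) and Epb4.1l1 (0.92), and Fosb with Gmfg (0.89) and Cdk12 (0.83). Jun went with Mthfsd (0.93) and Kdm4a (0.91), Atf3 with Pafah2 (0.90) and Mthfsd (0.90), and Jund with Ap1g2 (0.92) and Kdm5c (0.92). Between groups, Cd83 fell with Junb (log2 fold change -1.70, adjusted p = 0.00161) and Tnfrsf1b rose with Fosl2 (1.33, adjusted p = 0.000912). Cd86 fell too (-0.63, adjusted p = 0.0372), a call lost in 11 of 26 alternatives. Pafah2 rose (0.95, adjusted p = 0.00128), while Atf3 had a lower mean without passing the test. Gmfg fell (-0.89, adjusted p = 0.0111) and Kdm5c rose (0.62, adjusted p = 0.0171), beside Fosb and Jund, which were not called. Arhgdib had a log2 fold change of 0.58 without passing the test (adjusted p = 0.15) while Fos fell. The other genes named as most like a member were not called. Pafah2, Gmfg and Kdm5c were not followed through the alternatives.

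**Figure D4:**
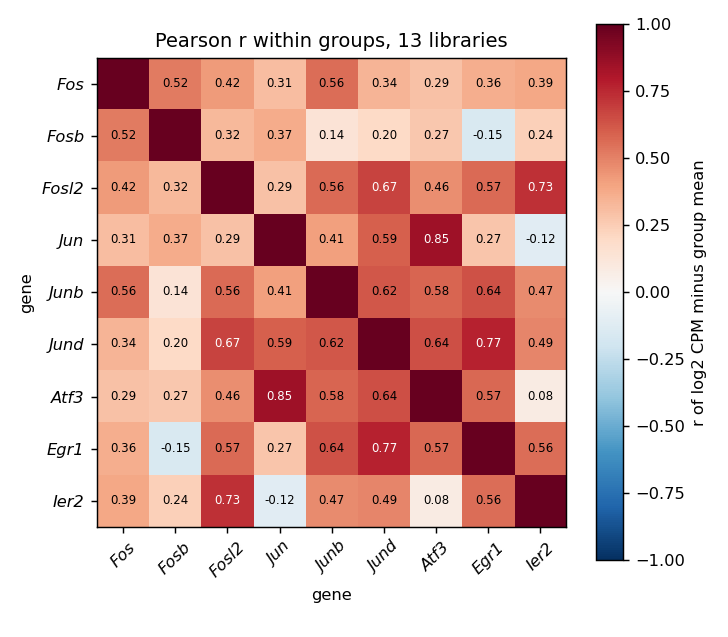
Pearson r between the 9 tested genes over 13 libraries (n = 5 siYap and 8 siLuc), computed on log2 CPM minus the mean of its own group, with the colour scale from -1 to 1. Nearly all cells are positive, with Jun and Atf3 at 0.85 and Egr1 and Fosb at -0.15.

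Of 12 other zipper proteins related to AP-1 that were tested, 2 rose and 1 fell, with a median log2 fold change of 0.28, which is near the shares over all genes (16.0% and 14.8%). Jdp2, a Jun partner that represses AP-1 sites, fell to 1.96 ± 0.593 FPKM in siYap, against 3.65 ± 0.919 FPKM in siLuc (log2 fold change -0.90, adjusted p = 0.00706). Atf7, a relative of Atf2, rose (0.96, adjusted p = 0.00911), as did the small Maf gene Mafg (0.53, adjusted p = 0.0232). Without siYap 1 and 3, 0 rose and Jdp2 alone fell, and without siYap 4 Mafg had an adjusted p of 0.0806. In the digit 7 libraries alone Jdp2 was not called (-0.57, adjusted p = 0.166).

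The wider early response class did not move as a block. The shares called over all genes tested were 16.0% higher and 14.8% lower. Of 39 other early response genes tested, 6 rose and 9 fell (median log2 fold change -0.16), and 5 rose and 8 fell without siYap 1 and 3. Phlda1, a pleckstrin homology protein induced by growth factors, had 8.16 ± 2.41 FPKM in siYap and 1.99 ± 0.808 FPKM in siLuc (2.03, adjusted p = 4.78e-05). Cyr61, a matricellular protein and one of the best known Yap targets, had 8.14 ± 2.05 FPKM in siYap and 19.4 ± 4.29 FPKM in siLuc (-1.26, adjusted p = 0.000308). Gadd45g, a growth arrest gene, rose (1.70, adjusted p = 0.000395), but was not called in the digit 7 libraries alone (0.88, adjusted p = 0.0622). Zfp36l2, which binds AU-rich elements, also rose (0.68, adjusted p = 0.00066). Of 12 heat shock genes, which rise when tissue is stressed, only the co-chaperone Bag3 was called (0.56, adjusted p = 0.0295, and 0.0513 to 0.0894 when any 1 of siYap 1, 3 or 5 or siLuc 8 was left out, and 0.24 in the digit 7 libraries alone).

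Upstream of these genes, counts of called kinases were mixed. Those of co-activators leaned one way with all libraries but not without siYap 1 and 3. Over all genes tested, 16.0% were called higher and 14.8% lower. Of 30 Erk, Jnk and p38 pathway kinases, 6 rose and 4 fell (median log2 fold change 0.08), and 4 rose and 2 fell without siYap 1 and 3. Mapk8, the kinase Jnk1 that phosphorylates Jun, measured 5.04 to 7.18 FPKM in siYap and 7.73 to 14.9 FPKM in siLuc (log2 fold change -0.75, adjusted p = 0.00273). Map3k5 (Ask1), Map2k3, which activates p38, and Map3k7 (Tak1) rose (0.79, 1.26 and 0.45, adjusted p = 0.000382, 0.00246 and 0.00641), though Map3k7 was not called in the digit 7 libraries alone (0.33, adjusted p = 0.129). Of 14 factors and co-activators that act at serum response and cyclic AMP response elements, 9 rose and 1 fell (median 0.54). Without siYap 1 and 3, 2 rose and 1 fell, near the shares over all genes. With the replicate number as a block, 3 rose and 0 fell. The factors with the smallest p over all libraries were Crebbp (0.94, adjusted p = 0.00175), Elk4 (0.78, adjusted p = 0.00211), Crtc2 (1.03, adjusted p = 0.00507) and Ep300 (0.79, adjusted p = 0.00683). Crebbp and Ep300 are histone acetyltransferases, Elk4 a partner of the serum response factor, and Crtc2 a co-activator of Creb. Without siYap 1 and 3 the adjusted p was 0.091 for Crtc2 and 0.0862 for Ep300, with log2 fold changes of 0.56 and 0.30. Of 14 phosphatases and Sprouty proteins that restrain Erk, Jnk or p38 signalling, 2 rose and 1 fell. Dusp9, which dephosphorylates Erk, fell (-2.88, adjusted p = 0.000269), and Spred2 and Spry2 rose (0.70 and 0.86, adjusted p = 0.0161 and 0.0187), neither without siYap 3 (adjusted p = 0.0634 and 0.0558) and Spry2 also not without siYap 1 (0.0525) or in the digit 7 libraries alone (0.287).

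Genes known as AP-1 targets were called in both directions, beside 16.0% higher and 14.8% lower over all genes tested. Of 26 tested, 7 rose and 8 fell (median log2 fold change 0.23), and 6 rose and 6 fell without siYap 1 and 3. Hbegf, an EGF receptor ligand, fell to 0.772 ± 0.344 FPKM in siYap, against 5.64 ± 0.922 FPKM in siLuc (-2.84, adjusted p = 6.03e-06). Lif, an IL-6 family cytokine, and F3, the tissue factor of coagulation, also fell (-3.11 and -1.33, adjusted p = 9.2e-05 and 0.000483), while Tgfb1 rose (1.80, adjusted p = 0.000659). Many of these genes answer to other factors as well, Yap among them.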

How the data were processed

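Tumour RNA of 13 libraries (5 siYap, 8 siLuc) was sequenced after removal of ribosomal RNA, per the labels' protocols. Trimmomatic 0.30, TopHat2 2.0.8, Cufflinks and Cuffdiff 2.1.1 with build mm10 are named in the submitters' processing notes, which as given here say nothing of annotation or strand. Per the file headers, the authors deposited unscaled fragments per gene, which are estimated counts, since 97.6% to 98.0% of values were whole within 1e-06. They also deposited FPKM, scaled by Cuffdiff, which per fragment differs in siYap 1 and siLuc 1, so levels of 1 gene are given in CPM. Alb, Apob and Trf, marked as too deep to estimate, were left out, and no member carried such a mark. Another FPKM table was not used here.

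Estimated counts were rounded and tested with edgeR 4.0.16 (R 4.3.3, TMM, default low-count filter, robust quasi-likelihood F test, 15132 genes), and all adjusted p are Benjamini-Hochberg values over these genes. CPM use TMM library sizes, and a prior count of 2 under logarithms. The SE is the log2 fold change over the root of F. Exact permutation tests covered all 1287 splits. The procedure was tested on simulated data. Alternatives were other scalings and filters, DESeq2 1.42.0, limma 3.58.1, counts summed per file-name number, a replicate block, the code digit and libraries left out. The digit 7 libraries alone, leaving out the first library of each group, CPM in the permutation test and all alternatives for the gene lists were added after seeing the data. The genes and lists were chosen with earlier results of these data known. Named genes were all 10, Yap1, up to 4 called genes per list with the smallest p, and the 2 genes most like each member.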

Additional observations from a re-analysis of the deposited data

Results flagged for a closer look

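In 2 of the 18 groups of values examined (9 genes in each treatment), 1 library stood apart from the others by the ratio of its gap to the range of its group (Dixon's test, 95%). Chance flags about 1 in 20 groups. Fos in siYap 1 was at 5.22 CPM, against 1.99 to 2.61 CPM in the other 4 siYap libraries. Atf3 in siLuc 1 was at 55.1 CPM, against 4.21 to 18.3 CPM in the other 7 siLuc libraries, and Jun was also highest there, at 45.7 CPM.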

How the results depend on the processing

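Fos and Junb kept their direction and their call in each of the 26 alternatives run for them (log2 fold change -1.79 to -0.98 for Fos and -0.71 to -0.58 for Junb). Fosl2 stayed positive in all 26 (0.30 to 0.92) and lost its call in 6: with limma on log2(FPKM + 1) (adjusted p = 0.0601) or log2(FPKM + 0.1) (0.0615), with counts summed per file-name number (0.065), under the replicate block (0.127), without siYap 3 (0.106) and without siYap 1 and 3 (0.282). The count of genes higher among the 10 was therefore 0 under those settings, and also 0 at an adjusted p under 0.01 and with a log2 fold change of at least 1. Under the fold rule the count lower was 1 (Fos). Leaving out 1 library at a time, it was 0 to 1 higher and 2 to 3 lower. Egr1 became the third called lower without siLuc 2 and in the digit 7 libraries alone (-0.96, adjusted p = 0.0215). Fosb turned to 0.48 in the digit 7 libraries alone and Jun to 0.0021 without the first library of each group, both uncalled. Among the other genes with a printed fold change only Arhgdib turned its sign in an alternative run for it, to -0.044 without siYap 1 and 3, uncalled. Over all genes 4668 were called, against 3325 to 4633 with 1 library left out, 2984 without siYap 1 and 3, 2362 at an adjusted p under 0.01 and 1992 with a log2 fold change of at least 1. With the replicate number as a block 2325 were called. Atf7, Mafg, Spred2, Spry2, Crtc2, Ep300, Map3k7, Bag3 and Cd86 were not among them (adjusted p = 0.0651 to 0.141). The labels do not say whether the numbers pair the samples. Correlations of same-numbered libraries ran from -0.12 to 0.13, and 1 of 5 matched its own number best. These values show no pairing but, with so few libraries, cannot exclude it. The causes were not tested. Depth limits Fosb and Fosl1, which had at most 28 fragments in any library.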
